A study of Mus musculus with 8 samples.

Results

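The genes compared here are 9 liver genes of glucose output and glycogen metabolism: G6pc, Slc37a4, Pck1, Fbp1 and Pcx on the side of glucose production, and Gys2, Gbe1, Pygl and Ppp1r3c on the side of glycogen. Every probe that the array lists under one of these symbols was taken, which gave 9 of the 30869 gene names and 14 of the 45281 probes on the array. Of these, 12 probes, with at least 1 for each of the 9 genes, were among the 16487 probes tested, and all 12 were detected on all 8 arrays. The other 2 probes, a second one each for Pcx and Gbe1, were detected on no array.

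RNA came from whole livers of 8 male C57BL/6J mice, hybridised singly to Illumina bead arrays. All mice ate a diet with 60% of its calories from fat from an age of 6 weeks. After 14 weeks of that diet, 4 mice were injected intraperitoneally with an antisense oligonucleotide (ASO) against Mogat1, which encodes a monoacylglycerol acyltransferase, and the other 4 with a scrambled control ASO. Each received 25 mg/kg 2 times a week for 3 weeks, and the age listed for every mouse is 25 weeks. An ASO is a synthetic oligonucleotide that pairs with a chosen RNA and leads to its loss, and one given into the peritoneum is not limited to hepatocytes or to the liver. There was no group without an ASO and none on ordinary chow, and the labels do not give the feeding state of the mice when the livers were taken.

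In the fed state the liver stores glucose as glycogen, and between meals it releases glucose, first from glycogen and then from new synthesis out of lactate, alanine and glycerol. Both routes end at glucose 6-phosphate, which a transporter carries into the endoplasmic reticulum and a phosphatase there turns into free glucose. Glucagon raises the transcription of the genes for gluconeogenic enzymes through cAMP and CREB, and insulin lowers it, in part by excluding FOXO1 from the nucleus.

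The level of a probe is its background-corrected, quantile-normalized signal on a log2 scale, and all differences are Mogat1 ASO minus control ASO. Arrays had median raw signals of 84.3 to 112 and 15788 to 16944 detected probes, and neither measure differed between the groups beyond the spread between arrays (the lower of the exact two-sided permutation p-values was 0.457, where 0.0286 is the smallest that 4 against 4 arrays allow). Mogat1 ASO replicate 1 stood apart: its score on the first principal component of the tested probes (43.8% of their variance) was 8.36, where control arrays had -25.8 to -16.7 and Mogat1 ASO replicates 2 to 4 had 23.6 to 29.2. Its score on the next component was 34.4, with the remaining arrays at -15.7 to 13.9, so differences that rest on it are given with and without it. The only Mogat1 probe was detected on no array (its lowest detection value was 0.814, against a limit of 0.05), so these arrays do not show how far Mogat1 RNA was lowered. Of 9 hepatocyte markers, 7 were tested and none passed the threshold, with a summed linear level of 223400 to 245200 on control arrays and 225600 to 236200 on Mogat1 ASO arrays. A linear sum weighs the brightest markers most. Serpina1a (-0.57) was lower on every Mogat1 ASO array than on every control array, as were 8.81% of all genes tested. With overlapping groups, Cps1 differed by -0.40, Tdo2 by -0.37, Apoa1 by -0.05, Cyp2e1 by -0.03, Ttr by 0.03 and Apoa2 by 0.07. The probes for the hepatocyte markers Alb and Tat were detected on no array.

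Among the 9 genes, G6pc and Pygl were lower in the livers given the Mogat1 ASO. By the probes listed under the 9 symbols, no gene was called higher. G6pc and Pygl encode the last enzyme of glucose release and the enzyme that breaks glycogen down. A gene was called when its brightest tested probe had a Benjamini-Hochberg adjusted p under 0.05 in limma's test over all probes. So called were 0 of the 9 genes as higher, against 7.14% of the 11686 genes tested, and 2 of the 9 as lower, against 6.12%. The 9 genes were read by probes listed under their symbols, and the 11686 genes by updated symbols. By updated symbols Gbe1 is read by a brighter, older-named probe, and then 1 of the 9 was higher and 2 lower. By probes, 3 of 12 were lower, against 5.93% of all probes tested, and 0 were higher, against 6.68%. Those 3 are the G6pc probe and both Pygl probes, so they add no gene to the count above. The median difference of the 9 genes was -0.25 with 7 of 9 below 0, beside a median of -0.0036 over all genes tested with 5905 of 11686 below 0. The groups did not overlap for the same 2 genes, nor for the older-named Gbe1 probe, which lay wholly higher. Of all genes, 8.81% lay wholly lower and 10.3% wholly higher in Mogat1 ASO livers. The 9 genes were chosen with earlier results of these data known. Their counts and median are therefore a description and are not read as particular to them.

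**Figure D1:**
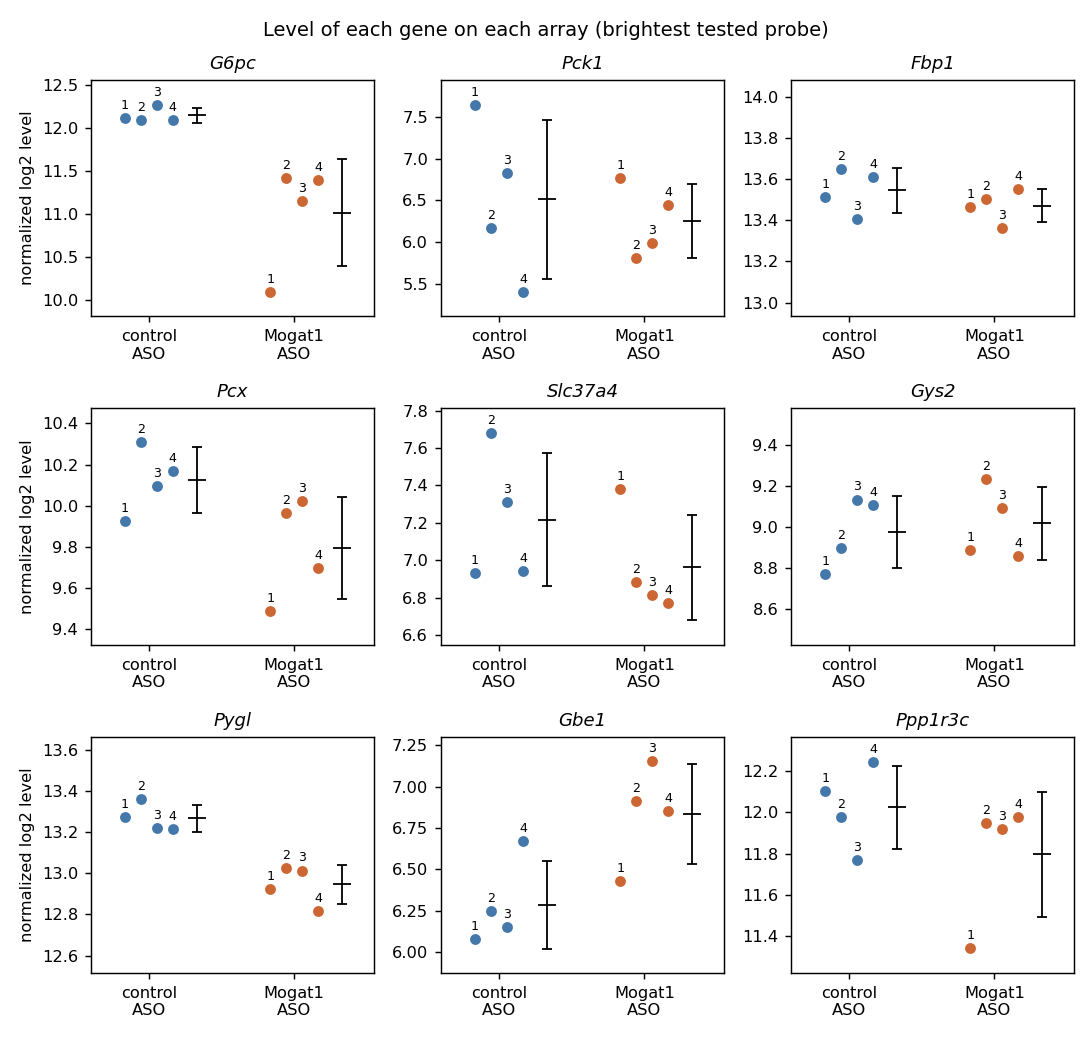
Normalized log2 level (vertical axis, a separate range for each gene) of the brightest tested probe listed under each of the 9 symbols. Points are the 8 arrays, numbered by replicate, with the mean and SD of each group beside the points (n = 4). The groups are apart for G6pc and Pygl and overlap for the other 7 genes, and Mogat1 ASO replicate 1 is the lowest array for G6pc, Pcx and Ppp1r3c.

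G6pc encodes the catalytic subunit of glucose-6-phosphatase, which makes the free glucose that leaves the hepatocyte. The gene lies on chromosome 11 at 101367716 to 101377903 of GRCm38.p6. Its 250 bases upstream of the RefSeq start (GRCm38.p6, chr11:101367466-101367715, plus strand) are shown because G6pc is the gene with the largest difference of the 9. Capitals mark the single match to TGTTTTG, the core of a forkhead insulin response element, 174 bases before the start.
G6pc: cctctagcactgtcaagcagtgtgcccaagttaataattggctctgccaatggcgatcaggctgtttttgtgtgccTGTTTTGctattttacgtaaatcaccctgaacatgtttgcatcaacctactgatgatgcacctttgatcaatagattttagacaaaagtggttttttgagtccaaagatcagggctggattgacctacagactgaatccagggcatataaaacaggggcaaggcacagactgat
This motif, searched on both strands, was found in 1 of the 11 promoters that the RefSeq table holds for 8 of these genes (3 for Slc37a4, of which 2 overlap, and 2 for Pcx) and in 5.561% of 32851 mouse promoters of the same length. A match is only a description of the letters, and no binding was measured.

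G6pc was 2.19-fold lower in Mogat1 ASO livers. Its probe (ILMN_1245103) read 12.12, 12.09, 12.27 and 12.10 on control arrays 1 to 4, and 10.09, 11.42, 11.15 and 11.39 on Mogat1 ASO arrays 1 to 4. Every Mogat1 ASO array lay below every control array, and the control arrays were closely spaced while Mogat1 ASO replicate 1 lay more than 1 log2 unit under the other 3. The means were 12.14 ± 0.09 and 11.01 ± 0.62 (SD, n = 4 each), a difference of -1.13 (SE 0.24, 95% confidence interval -1.66 to -0.60, limma adjusted p = 0.0119). Without Mogat1 ASO replicate 1 the difference was -0.82, or 1.77-fold, and it still passed the threshold. The raw signals before any correction were 4303 to 4998 on control arrays and 1028 to 3246 on Mogat1 ASO arrays, so the separation is visible without normalization. In RNA of whole liver, fewer cells of a type and less RNA for each cell cannot be told apart.

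Slc37a4 encodes the transporter that brings glucose 6-phosphate to this phosphatase. Its level was 6.93 to 7.68 on control arrays and 6.77 to 7.38 on Mogat1 ASO arrays, and the ranges overlapped. The difference was -0.25 (SE 0.19, interval -0.67 to 0.16, limma adjusted p = 0.426). The G6pc difference of -1.13 lies outside this interval, but the interval of G6pc, -1.66 to -0.60, overlaps it. The Slc37a4 difference was -0.10 without control replicate 2. Without Mogat1 ASO replicate 1 it was -0.40, where that of G6pc was -0.82. Of the isoenzymes of G6pc, G6pc3, the widely expressed phosphatase, differed by -0.01 (SE 0.14, limma adjusted p = 0.965), and G6pc2, the islet form, was detected by 1 of its 2 probes on 1 control array only.

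None of the 3 enzymes that carry pyruvate to fructose 6-phosphate was called. Pck1 encodes the cytosolic phosphoenolpyruvate carboxykinase, a classic target of glucagon and insulin. Its promoter (chr2:173152823-173153072, plus strand) is shown beside that of G6pc because both genes are known to answer to the same hormones. Capitals mark TGACG, the short core of a cAMP response element, read on the reverse strand 90 bases before the start.
Pck1: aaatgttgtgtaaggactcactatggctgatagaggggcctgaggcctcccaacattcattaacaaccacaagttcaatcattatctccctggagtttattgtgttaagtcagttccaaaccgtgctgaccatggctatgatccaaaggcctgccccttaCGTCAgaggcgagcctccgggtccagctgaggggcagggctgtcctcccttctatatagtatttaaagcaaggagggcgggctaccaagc
TGACG was found in 4 of the 11 promoters, from 3 genes, since the overlapping promoters of Slc37a4 share a site, and in 17.77% of all promoters. The full palindrome TGACGTCA, which contains it, was found in 0 of the 11 and in 1.546% of all, and the forkhead core TGTTTAC in 0 of the 11 and in 3.166%.

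Pck1 varied more within the control group than between the groups. Its brighter probe (ILMN_2777986) read 7.65, 6.17, 6.82 and 5.41 on control arrays 1 to 4 and 6.77, 5.81, 5.99 and 6.44 on Mogat1 ASO arrays 1 to 4. The Mogat1 ASO values all lay inside the control range. The difference was -0.26 (SE 0.40) with an interval of -1.13 to 0.61 (limma adjusted p = 0.722), and it became 0.12 without control replicate 1. The probe was dim: its raw signals were 128 to 250 on control arrays and 127 to 195 on Mogat1 ASO arrays, and its highest detection p was 0.0438. The second probe (ILMN_1213632) differed by -0.07 (SE 0.16, interval -0.43 to 0.28, limma adjusted p = 0.811). Both probes of Pck2, the mitochondrial isoenzyme, were detected on no array.

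Fbp1, fructose-1,6-bisphosphatase of the liver, had nearly the same level on every array. It was 13.41 to 13.65 on control arrays and 13.36 to 13.55 on Mogat1 ASO arrays. The difference of -0.07 (SE 0.08, interval -0.25 to 0.10, limma adjusted p = 0.591) leaves room for a fall of no more than 0.25 on the log2 scale at the 95% level. A probe that the array lists under the older symbol Fbp3 differed by 0.06 (SE 0.18, limma adjusted p = 0.864), and the muscle isoenzyme Fbp2 was detected on no array.

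Pcx, pyruvate carboxylase, takes pyruvate into oxaloacetate in mitochondria. It read 9.93, 10.31, 10.10 and 10.17 on control arrays and 9.49, 9.96, 10.02 and 9.70 on Mogat1 ASO arrays. Mogat1 ASO replicates 2 and 3 lay within the control range and the other 2 below it. The difference was -0.33 (SE 0.13, interval -0.62 to -0.05), which had an unadjusted p of 0.0259 and missed the threshold after adjustment over all probes (limma adjusted p = 0.119). Without Mogat1 ASO replicate 1, the lowest array, it was -0.23 (limma adjusted p = 0.189). It passed only when arrays were scaled to their 75th percentile (-0.44, limma adjusted p = 0.0401), a scaling that moved the share of all called probes that were higher from 53.0% to 38.7%.

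**Figure D2:**
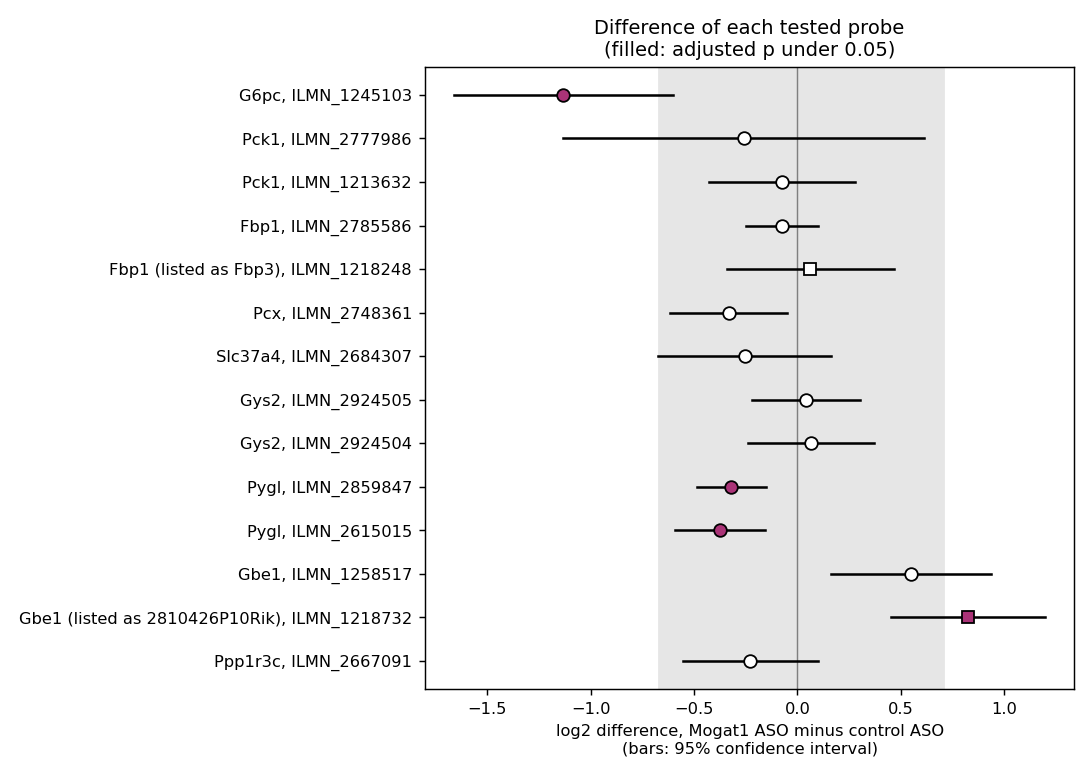
Log2 difference (horizontal axis) with its 95% confidence interval for each tested probe of the 9 genes. Filled symbols passed the threshold, squares are probes that the array lists under an older symbol, and the grey band holds the central 95% of all tested probes (-0.67 to 0.71). G6pc lies below the band, both Pygl probes inside it, and the older-named Gbe1 probe above it.

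On the glycogen side, Pygl fell while glycogen synthase did not pass the test. Pygl, liver glycogen phosphorylase, cuts glucose 1-phosphate from glycogen. It lies on the minus strand of chromosome 12 at 70190815 to 70227683. Its promoter (chr12:70227684-70227933, minus strand) is shown as that of the other called gene, with TGACG in capitals on the reverse strand 44 bases before the start.
Pygl: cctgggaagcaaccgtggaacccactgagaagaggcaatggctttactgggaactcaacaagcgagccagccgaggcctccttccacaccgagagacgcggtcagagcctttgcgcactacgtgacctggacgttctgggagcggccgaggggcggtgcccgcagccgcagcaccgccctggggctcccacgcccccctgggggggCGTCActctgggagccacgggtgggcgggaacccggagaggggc
It holds no match to TGTTTTG, the motif marked in the G6pc promoter.

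Pygl was lower by both of its probes. The brighter probe (ILMN_2859847) read 13.27, 13.36, 13.22 and 13.22 on control arrays 1 to 4 and 12.92, 13.03, 13.01 and 12.82 on Mogat1 ASO arrays 1 to 4. All control arrays lay above all Mogat1 ASO arrays, with a small spread in each group. The difference was -0.32 (SE 0.08, interval -0.49 to -0.15, limma adjusted p = 0.0192), or 1.25-fold lower. The dimmer probe (ILMN_2615015) read 11.56, 11.78, 11.62 and 11.80 against 11.27, 11.33, 11.14 and 11.52, again without overlap. Its difference was -0.37 (SE 0.10, limma adjusted p = 0.0306), or 1.30-fold lower, and it passed in 13 of 20 other settings. The call was lost without control replicate 2, 3 or 4 or Mogat1 ASO replicate 2 or 3 (highest limma adjusted p = 0.0948). It was also lost with no filter on dim probes (limma adjusted p = 0.0584) and no variance trend (limma adjusted p = 0.0549). For the brighter probe too the call was close to its threshold: without control replicate 2 the brighter probe had a limma adjusted p of 0.0684, and without Mogat1 ASO replicate 4 one of 0.0620. Mogat1 ASO replicate 1, the lowest array for G6pc, was not the lowest for either Pygl probe. The brain isoenzyme Pygb differed by 0.11 (SE 0.15, limma adjusted p = 0.666), and the muscle isoenzyme Pygm was detected on no array.

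Gys2, the liver glycogen synthase, adds glucose from UDP-glucose to the growing chain. Its brighter probe (ILMN_2924505) was 8.77 to 9.13 on control arrays and 8.86 to 9.23 on Mogat1 ASO arrays, with groups that overlapped almost wholly. The difference was 0.04 (SE 0.12, interval -0.22 to 0.30, limma adjusted p = 0.856), and that of the second probe was 0.07 (SE 0.14, interval -0.24 to 0.37, limma adjusted p = 0.803). The sign of so small a value turned under scaling to the 75th percentile (-0.024). All 3 probes of Gys1, the muscle form, were detected on no array.

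Gbe1, the branching enzyme that makes the side chains of glycogen, gave the largest positive difference among the 9 genes, and its probes differ in whether they pass the test. The tested probe listed as Gbe1 (ILMN_1258517) read 6.08, 6.25, 6.15 and 6.67 on control arrays 1 to 4 and 6.43, 6.91, 7.15 and 6.86 on Mogat1 ASO arrays 1 to 4. The groups overlapped through control replicate 4 and Mogat1 ASO replicate 1. The difference was 0.55 (SE 0.18, interval 0.16 to 0.94), 1.46-fold, with a limma adjusted p of 0.0644. It passed the threshold without control replicate 4 (0.68, limma adjusted p = 0.0355), without Mogat1 ASO replicate 1 (0.69, limma adjusted p = 0.0144) and with array weights (0.64, limma adjusted p = 0.0145).

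A further probe (ILMN_1218732) that the array lists as 2810426P10Rik, a name the RefSeq table gives as an older one of Gbe1, falls outside the rule and was looked at with its values known. It read 8.07, 8.33, 8.31 and 8.77 on control arrays and 9.15, 9.57, 9.17 and 8.88 on Mogat1 ASO arrays, without overlap. It rose by 0.82 (SE 0.17, interval 0.45 to 1.20, limma adjusted p = 0.0103), or 1.77-fold, and passed the threshold in 21 of 21 other settings. Whether the 2 probes read the same transcripts cannot be told from the files used here.

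Ppp1r3c, a targeting subunit that brings protein phosphatase 1 to glycogen and so favours synthesis, was 11.77 to 12.24 on control arrays and 11.34 to 11.98 on Mogat1 ASO arrays. Mogat1 ASO replicates 2 to 4 lay within the control range and replicate 1 below it. The difference was -0.23 (SE 0.15, interval -0.55 to 0.10, limma adjusted p = 0.355). Without replicate 1 it shrank to -0.08. Across the 9 genes, Mogat1 ASO replicate 1 was the lowest of the 8 arrays for 3 genes, and control replicate 2 was the highest for 4.

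**Figure D3:**
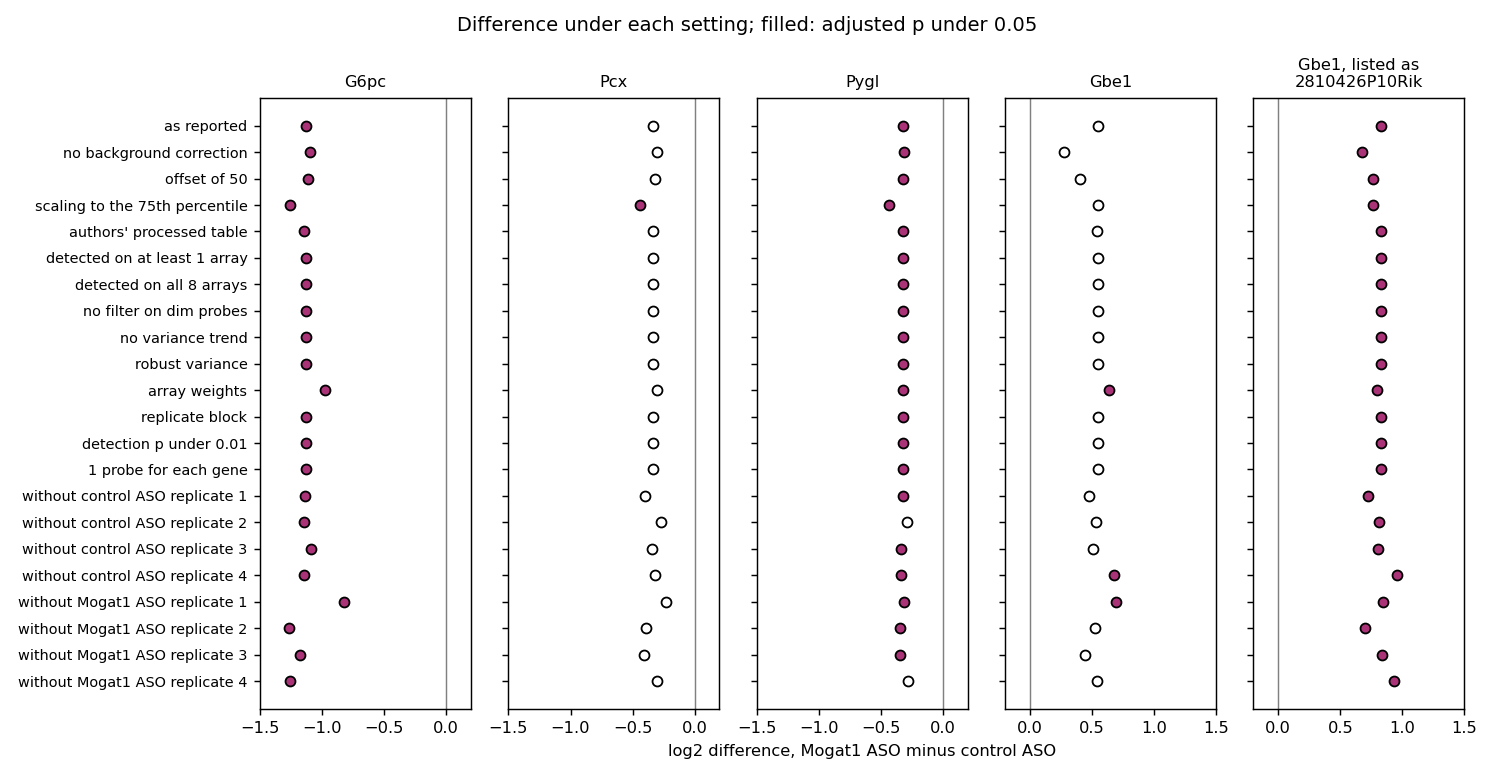
Log2 difference (horizontal axes) of the probes of G6pc, Pcx, Pygl and Gbe1, and of the Gbe1 probe under its older name, as reported and under each other processing setting or with 1 array left out (vertical axis), filled where the adjusted p was under 0.05. The Pygl panel shows its brighter probe. G6pc and the older-named Gbe1 probe are filled in every line, Pygl in all but 2, Gbe1 in 3 and Pcx in 1.

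The wider pathway was read from 5 lists with 106 genes, of which 72 were tested, 3 were higher and 4 lower, where 7.14% of all genes tested were higher and 6.12% lower. None of the counts below is read as particular to its list. Of 18 tested glycogen enzymes and regulators besides the 4 above, 2 were higher and 0 lower, with a median difference of -0.0075. Ugp2, which makes the UDP-glucose that glycogen synthase uses, read 11.04, 11.09, 11.11 and 11.17 on control arrays and 11.30, 11.36, 11.47 and 11.51 on Mogat1 ASO arrays. It rose by 0.30 (SE 0.08, limma adjusted p = 0.0288), with groups that did not overlap, and passed in 13 of 21 other settings. Its call was lost without control replicate 1, 2 or 3 or Mogat1 ASO replicate 3 or 4 (highest limma adjusted p there 0.0883). Scaling to the 75th percentile lost it as well (0.18, limma adjusted p = 0.160). So did no filter on dim probes (limma adjusted p = 0.0866) and no variance trend (limma adjusted p = 0.0580). Gyg, glycogenin, the protein primer on which a glycogen chain starts, read 5.94, 6.06, 5.57 and 5.85 on control arrays and 6.14, 6.95, 6.82 and 6.41 on Mogat1 ASO arrays. It rose by 0.72 (SE 0.19, limma adjusted p = 0.0276), while its second probe, at 0.36, was not called (limma adjusted p = 0.156). The Gyg probe was dim: its difference was 0.33 without background correction. It passed in 17 of 21 other settings, with the call lost without control replicate 3 or 4 or Mogat1 ASO replicate 2 or 3 (highest limma adjusted p = 0.0869). Both genes stand upstream of the synthase in glycogen synthesis, and Gys2 itself did not pass the test.

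No gene was called among 4 tested genes of glucose uptake, phosphorylation and release besides the members. The brightest probe of Slc2a2, the bidirectional glucose transporter of hepatocytes, differed by -0.10 (SE 0.15, limma adjusted p = 0.734).

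Of 16 tested genes that supply substrate to gluconeogenesis, 1 was lower and 0 higher, with a median of -0.13. That gene was Mpc2, a subunit of the mitochondrial pyruvate carrier, which the array lists as Brp44. It read 9.43, 9.42, 9.54 and 9.55 on control arrays and 9.11, 9.04, 8.76 and 8.78 on Mogat1 ASO arrays. It fell by 0.56 on the log2 scale (SE 0.10, limma adjusted p = 0.0062), without overlap and in 21 of 21 other settings. The carrier acts just before pyruvate carboxylase, whose own difference missed the threshold. The brightest Got2 probe, for the mitochondrial aspartate aminotransferase, differed by 0.06 (SE 0.07, limma adjusted p = 0.644), and its other tested probe by -0.41 (SE 0.16, limma adjusted p = 0.124).

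Among 20 tested transcriptional regulators of gluconeogenic genes, 2 were lower and 0 higher, with a median of -0.08. Crem, a relative of CREB whose short form ICER is itself induced by cAMP, read 7.54, 7.69, 7.38 and 7.39 on control arrays and 6.51, 6.53, 6.34 and 6.54 on Mogat1 ASO arrays. It fell by 1.02 on the log2 scale (SE 0.11, limma adjusted p = 5.4e-04), and both of its other tested probes fell too, by 0.80 and 0.89. Without background correction the difference of the brightest probe was -0.59, still past the threshold. Mlxipl, the glucose-sensing factor ChREBP, read 10.97, 11.28, 11.19 and 11.23 on control arrays and 10.68, 10.92, 10.50 and 10.92 on Mogat1 ASO arrays. It fell by 0.41 (SE 0.11, limma adjusted p = 0.0363), and its second probe by 0.54 (limma adjusted p = 0.0096). The first probe passed in 15 of 21 other settings, with the call lost without control replicate 2, 3 or 4 or Mogat1 ASO replicate 3 (highest limma adjusted p = 0.103). This call was also lost with no filter on dim probes (limma adjusted p = 0.0617) and no variance trend (limma adjusted p = 0.0577). Other known regulators of G6pc and Pck1 were not called: Foxo1 differed by 0.00 (SE 0.11), Ppargc1a by -0.37 (SE 0.18, limma adjusted p = 0.218) and Hnf4a by -0.29 (SE 0.11, limma adjusted p = 0.0942). CACGTG, an E-box of the kind in the elements that ChREBP is known to bind, searched on both strands, was found in 2 of the 11 promoters, those of Pcx and Ppp1r3c, and in 6.021% of all promoters.

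Of 14 tested genes of hormone signalling and response, 1 was higher and 1 lower, with a median of -0.23. Gcgr, the glucagon receptor, read 10.04, 10.98, 10.69 and 10.83 on control arrays and 8.99, 9.43, 8.83 and 8.88 on Mogat1 ASO arrays. No array of one group reached the range of the other, and the fall of 1.60 on the log2 scale (SE 0.20, limma adjusted p = 8.8e-04), or 3.04-fold, exceeded in size the difference of each of the 9 genes. It lay between 2.73-fold and 3.48-fold in 21 other settings, each past the threshold. Prkaa2, a catalytic subunit of AMP-activated kinase, rose by 0.47 (SE 0.10, limma adjusted p = 0.0136), while a second, dim probe, detected on 3 control arrays and 1 Mogat1 ASO array, lay at -0.64 (limma adjusted p = 0.0821). Insr, the insulin receptor, differed by -0.12 (SE 0.09, limma adjusted p = 0.430) on a probe that the array lists as D630014A15Rik.

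**Figure D4:**
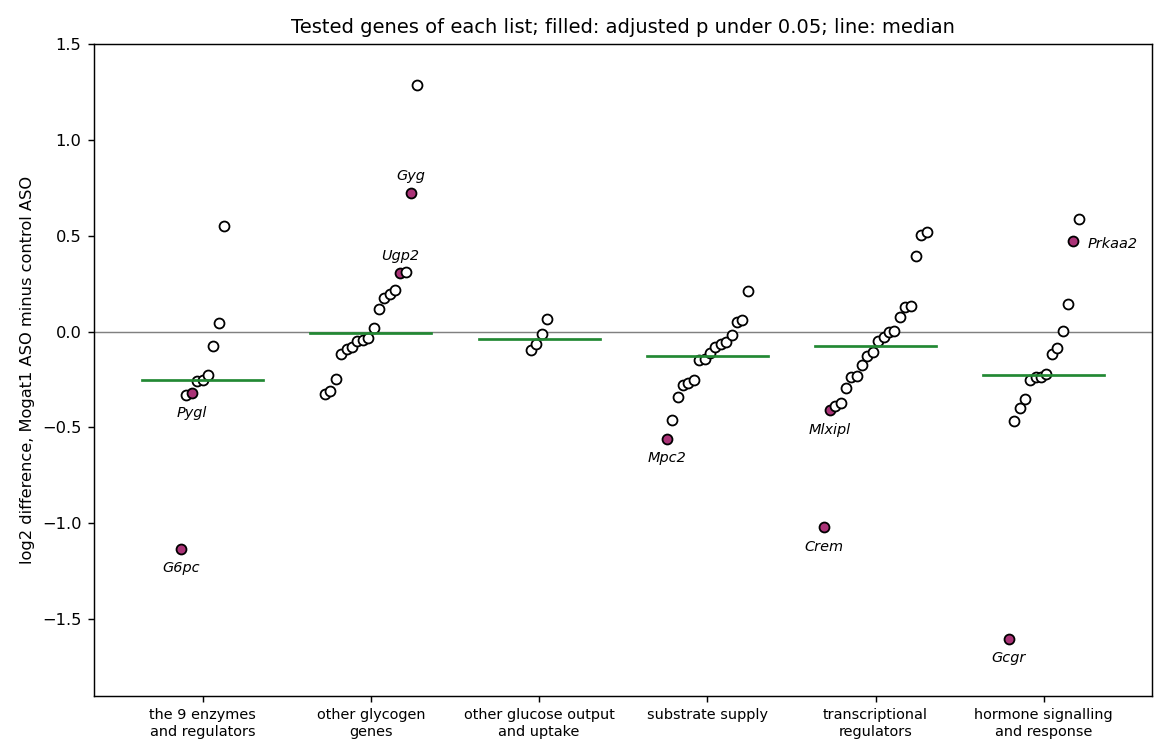
Log2 difference (vertical axis) of every tested gene in each list (horizontal axis, genes ordered by difference within a list), filled where the adjusted p was under 0.05, with the median of the list as a line. G6pc and Pygl, and outside the 9 genes Mpc2, Crem, Mlxipl and Gcgr, are filled below 0, and Ugp2, Gyg and Prkaa2 above it.

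The named genes whose level over the 8 arrays was most like that of G6pc were Sfxn5, Nelfcd, Mettl26, Lgsn and Slc25a25, with Pearson's r of 0.967 to 0.975. With the group means taken out, r was 0.899 to 0.951. For G6pc, Mogat1 ASO replicate 1 lay far below the rest of its group, so this r leans on that array. The value of r without it was not computed. For Pygl they were Snrnp27, Ublcp1, Cyb5rl, St3gal3 and Tmub2, with r of 0.970 to 0.990 and, within groups, 0.804 to 0.944. The points share the same 8 livers and the same normalization, 9569 genes were ranked for each, and the values are a description.

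Some markers of other cell types differed between the groups. Of 11 macrophage and Kupffer cell markers, all tested, Lyz2, C1qa, C1qb and C1qc were higher and Cd163 lower in Mogat1 ASO livers. Of all genes tested, 7.14% were higher and 6.12% lower. The other 6 markers were not called: Adgre1 differed by -0.02, Clec4f by -0.10, Csf1r by -0.04, Cd68 by 0.27, Vsig4 by 0.22 and Marco by 0.62. The summed linear level was 13540 to 16610 on control arrays and 16720 to 24390 on Mogat1 ASO arrays. Of 6 endothelial markers, all tested, Lyve1 was higher and Stab2 lower, with sums of 11520 to 13200 and 11380 to 12110. Of 6 pancreas markers the 2 tested, Cela1 and Amy2b, were both lower, with sums of 17830 to 20140 and 10670 to 15430, while Ins1, Ins2 and Pnlip were detected on no array. The groups overlapped for Cela1 but not for Amy2b. Whether the signals of Cela1 and Amy2b came from pancreas cells was not tested. Of 6 adipocyte markers 2 were tested and none was called, with sums of 1004 to 4462 and 685 to 1207, and Adipoq, Plin1, Fabp4 and Retn were detected on no array. No tested marker of lymphocytes, neutrophils, stellate cells, cholangiocytes, muscle, kidney or the erythroid line was called. Few of them could be tested: 3 of 8 for lymphocytes, 2 of 5 for neutrophils and 4 of 7 for stellate cells. For cholangiocytes it was 3 of 5, for muscle 1 of 6, for kidney 1 of 5 and for the erythroid line 3 of 4. The part of these cell types in the differences of G6pc, Pygl and Gbe1 was not tested.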

How the data were processed

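For every probe on every array, the deposited non-normalized values give an intensity, per the file headers, and beside it a detection p-value. A deposited set of processed intensity values was used only as an alternative. The labels and headers used here do not name the authors' software. Intensities were corrected with normexp (negative controls estimated through the detection p-values), given an offset of 16, normalized by quantiles and taken to log2 (neqc, limma 3.58.1, R 4.3.3) after reading with the data.table package (version 1.17.8). The 16487 probes with a detection p-value under 0.05 on 4 or more of the 8 arrays entered lmFit and eBayes with a variance trend. The p-values are two-sided and adjusted by Benjamini-Hochberg over all of these probes. Only this fit was tested on simulated data, with independent noise, and not the correction, normalization or detection filter. A gene stands for its brightest tested probe. Arrays carry no counting depth, and 4 mice a group limit the precision.

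Symbols were updated through RefSeq names (GRCm38.p6): 27740 probes carried a current symbol, 8037 were updated and 9504 kept theirs. Promoters are RefSeq sequences of that build, and coordinates are those of its gene annotation. Arrays correlated by rank at 0.910 to 0.925, and 0 pairs were identical. Named genes were, by rule, all members with their probes, their isoenzymes, Mogat1, called genes of the 5 lists (up to 6 each, filled to 2 with the brightest), and the 5 genes most alike to each called member; 1 gene that the rule names is not reported here. Foxo1, Ppargc1a, Hnf4a, Insr and the older-named probes were added with values seen. Members and lists were chosen with earlier results of these data known. Alternatives changed the background correction, offset, scaling, detection filter, variance model, array weights, probe choice, replicate block and each array. Figures were drawn with matplotlib 3.10.9 in Python 3.11.15.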

Additional observations from a re-analysis of the deposited data

Results flagged for a closer look

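In groups of 4, an array was singled out where its gap to the nearest other, as a share of the range of the group, passed Dixon's 95% critical value, which chance gives in about 1 of 20 groups. Of 28 groups checked, 2 met this. For G6pc, control ASO replicate 3 read 12.27 with the other control arrays between 12.09 and 12.12, and lay on the side away from the Mogat1 ASO arrays. For Ppp1r3c, Mogat1 ASO replicate 1 read 11.34 with the other 3 between 11.92 and 11.98.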

How the results depend on the processing

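The results were recomputed under 23 alternatives: 8 that leave out 1 array, 14 other planned settings and 1 added after seeing the data. G6pc passed in all 8 and all 14, at -1.27 to -0.82 without 1 array and -1.26 to -0.98 otherwise. Without 1 array, the probes called numbered 607 to 1574 higher and 545 to 1527 lower, and the member genes 0 to 1 higher and 1 to 2 lower. The differences then ran from -0.35 to -0.28 for Pygl, 0.45 to 0.69 for Gbe1, -0.63 to 0.12 for Pck1 and -0.029 to 0.096 for Gys2. Array weights gave 1835 probes higher and 1726 lower, and 1 member gene higher (Gbe1, 0.64). With probes under older names added, 1 member gene was higher (Gbe1, 0.82). Scaling to the 75th percentile gave 859 probes higher and 1362 lower, Pcx at -0.44 past the threshold and Gys2 at -0.024. Replicate numbers are shared by the groups, but the correlations of same-numbered deviations (0.199, 0.0786, -0.0307 and 2.84e-05) do not show that they pair mice. A replicate block gave 1014 probes higher and 953 lower, left G6pc at -1.13 (limma adjusted p = 0.0106) and changed no member's call. The causes were not tested. For dim probes the size of a difference depends on the background correction: without it Gbe1 was at 0.28, Gyg at 0.33, Crem at -0.59 and Slc37a4 at -0.15.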

Other observations

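Phosphorylase kinase, which switches glycogen phosphorylase on, was measured by 3 of its subunits that were tested. Phka2, the liver form of the alpha subunit, was 8.82 ± 0.18 on control arrays and 8.49 ± 0.12 on Mogat1 ASO arrays (SD, n = 4 each), a difference of -0.32 (SE 0.11, limma adjusted p = 0.0875). Phkb, the beta subunit, was 7.23 ± 0.06 and 6.92 ± 0.16, a difference of -0.31 (SE 0.11, limma adjusted p = 0.0940). Neither passed the threshold. The groups did not overlap for either gene, as for 8.81% of all genes tested, which lay wholly lower. Phkg2, the catalytic subunit of liver, lay on the other side at 0.17 (SE 0.09, limma adjusted p = 0.236).

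None of the tested targeting subunits of protein phosphatase 1 was called. Ppp1r3g, which the array lists as 1600032L17Rik, had the largest positive difference among the tested glycogen genes, 1.29 (SE 0.46, limma adjusted p = 0.0937), with detection on 2 of 4 control arrays and all 4 Mogat1 ASO arrays. Ppp1r3b, the main form of liver, differed by -0.25 (SE 0.25, limma adjusted p = 0.571), and Ppp1r3e by 0.02 (SE 0.20, limma adjusted p = 0.963). These genes were picked with their values seen.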
